A study of Saccharomyces cerevisiae with 12 samples.

Results

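SPG1, SPG3, SPG4, SPG5, SNZ1, SNO1, SIP18, GRE1, TMA10 and RGI1 of Saccharomyces cerevisiae are 10 of the 5449 genes that the array's annotation names, and each is read by 1 probe set. They are genes of stationary phase, desiccation tolerance and respiratory growth, and were chosen by their measured rise in LSMMG on these same arrays, where the group holds the largest rises. Their higher ratios in LSMMG than in controls are therefore given as a description, and the counts past a threshold beside them are not read as a test. The comparisons of 25 with 5 generations, within each kind of vessel, were not used in choosing them.

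The study grew the diploid strain BY4743, which lacks HIS3, LEU2 and URA3 in all groups, in YPD medium in high aspect ratio vessels (HARVs). A HARV turned in the vertical position keeps cells falling gently through the medium and models low gravity (low-shear modeled microgravity, LSMMG). A HARV in the horizontal position served as the control. The sample titles give 3 arrays each to LSMMG after 5 generations (SMG 5) and 25 generations (SMG 25) and to the control vessels at the same times (Ctrl 5 and Ctrl 25). The 6 control arrays together are called Ctrl. Cultures were kept in log phase by serial dilution, and a description shared by all samples names 5 generations for every one, so that the later time rests on the titles. The legends of the study count the control arrays differently between the times, and 1 control array was set aside there as aberrant without being identified. All 12 deposited arrays were used. The replicates are described as separate RNA extractions and nothing states that they came from separate cultures, so p-values measure only the spread between these arrays.

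When glucose runs out, yeast cells pass through a shift to respiration, stop dividing and enter stationary phase, a resting state in which the wall thickens, reserves are stored and the cells tolerate heat and drying. Many genes of this state are repressed while glucose is plentiful and are turned on by stress factors such as Msn2 and Msn4 once the growth-promoting kinases TORC1 and protein kinase A fall silent. Hydrophilins, small proteins rich in glycine and in water-binding residues, protect other molecules while a cell dries. Vitamin B6, the cofactor of transaminases, is made in resting yeast by an enzyme pair whose genes are named for the same state.

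The values are linear ratios. The median is 1 on each array, and the median of each probe set over the arrays lies between 0.9935 and 1.0105. A ratio therefore compares a gene with itself on the other arrays, and ratios cannot rank the genes by abundance. Signals on the original scale were not used here, so the deleted marker genes could not be checked as absent, and the small number of arrays limits the precision.

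In LSMMG the genes were set apart mainly by 4 of them. By log2 fold change against Ctrl at 5 generations TMA10 ranked 1, SPG4 2, RGI1 3 and SIP18 16 among all 8968 probe sets tested. At 25 generations the same genes ranked 2, 1, 5 and 19. SPG1 and GRE1 ranked 38 and 52 at 5 generations, whereas SNO1 and SPG5 ranked 418 and 485 and SPG3 and SNZ1 lay far down, at 1999 and 4884. The largest rises are thus those of the top of the group, and SPG3 and SNZ1 hold none of them.

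**Figure D1:**
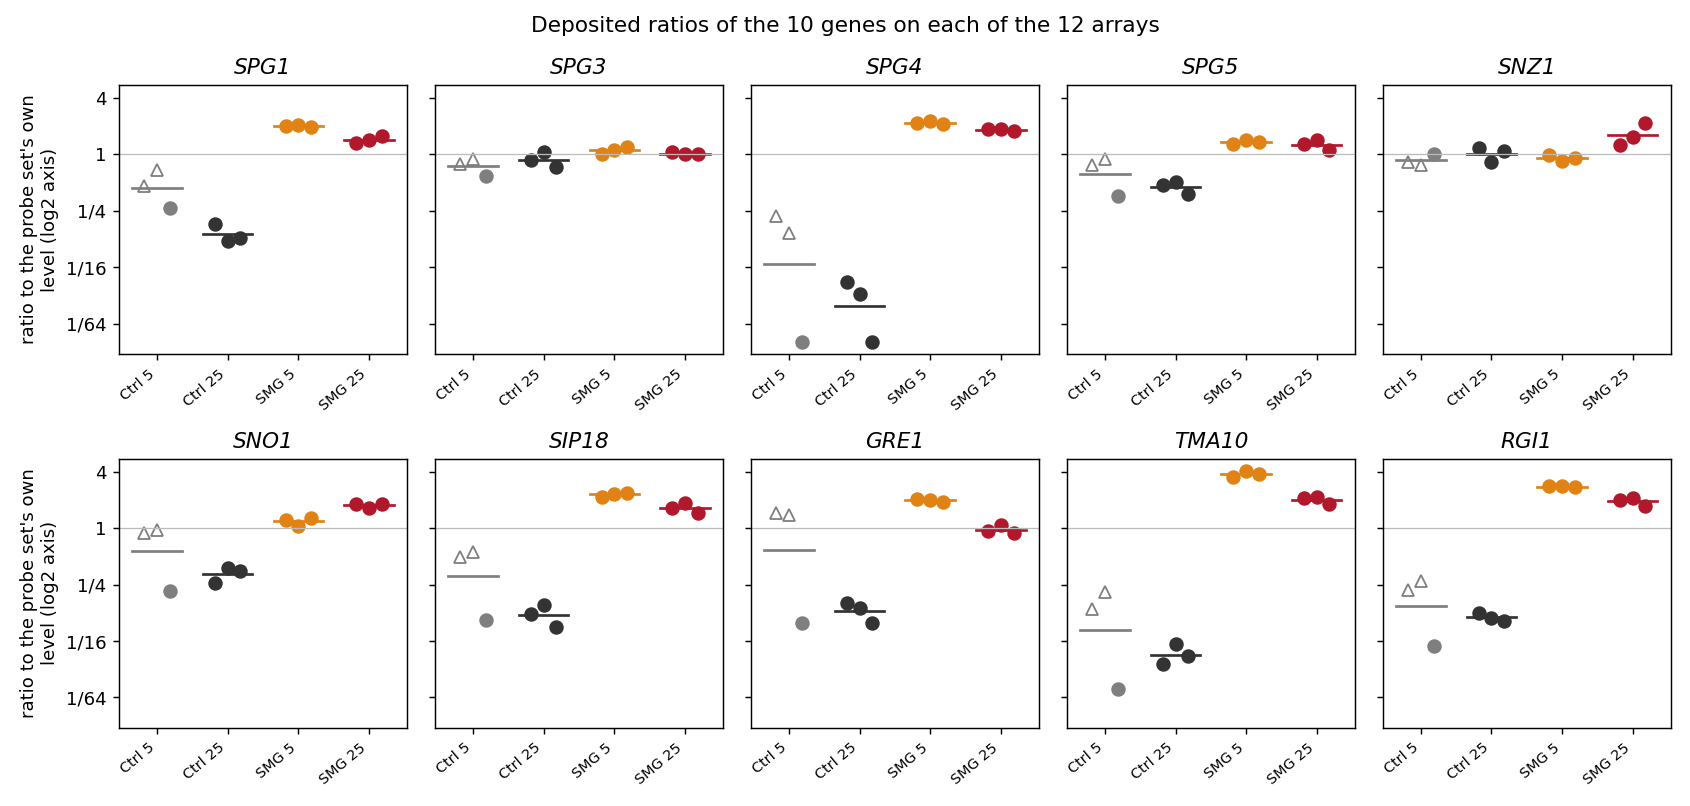
Ratio of each of the 10 genes on each of the 12 arrays (log2 vertical axis; each point is 1 array, each short line the geometric mean of a group of 3). Open triangles mark replicates 1 and 2 of Ctrl 5, which stand above the other control arrays for 8 of the 10 genes, and the lowest SPG4 points lie at the file's lowest ratio of 0.01. For how many of all probe sets the triangles stand above was not counted.

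TMA10 encodes a small ribosome-associated protein. Its ratio was 3.49, 4.08 and 3.79 on the SMG 5 arrays and 2.10, 2.12 and 1.80 on the SMG 25 arrays. On the Ctrl 5 arrays it was 0.137, 0.208 and 0.0193, and on the Ctrl 25 arrays 0.0353, 0.0581 and 0.0436. No LSMMG array came near a control array, and within LSMMG every array of 5 generations lay above every array of 25. The log2 fold change against Ctrl was 5.96 (SE 0.59) at 5 generations and 5.05 (SE 0.59) at 25, or 62.4-fold and 33.1-fold.

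RGI1 encodes a protein of energy metabolism under respiratory growth. Its ratios were 2.79, 2.81 and 2.74 in SMG 5 and 2.02, 2.07 and 1.74 in SMG 25. Those in Ctrl 5 were 0.221, 0.271 and 0.0553 and those in Ctrl 25 were 0.124, 0.110 and 0.103. As with TMA10, the groups of LSMMG and control arrays did not overlap, and on the log2 scale the SMG 5 arrays were the tightest of the 4 groups for both genes. The log2 fold change was 4.43 (SE 0.39) at 5 generations and 3.91 (SE 0.39) at 25, which is 21.5-fold and 15.0-fold.

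The 4 SPG genes were named for the survival of stationary-phase cells at high temperature, which fails in their absence. SPG4 read 2.16, 2.26 and 2.10 in SMG 5 and 1.84, 1.87 and 1.79 in SMG 25. In Ctrl 5 it read 0.218, 0.146 and 0.01, and in Ctrl 25 0.043, 0.0325 and 0.01. The value 0.01 is the lowest in the whole file and occurs there only for SPG4, on these 2 control arrays, while the next lowest value of any probe set is 0.0155. From the geometric means the rise of SPG4 was 53.5-fold at 5 generations and 45.3-fold at 25 (log2 5.74 and 5.50, SE 0.87), and it would be larger if 0.01 is a limit set on lower ratios. The ratios of the arithmetic means, on which the lowest values weigh little, were 28.4 and 24.0. Against the 4 control arrays above 0.01 the rise was 26.6-fold and 22.5-fold (log2 4.73 and 4.49). TMA10 was not set against those 4 arrays, so these values do not order SPG4 and TMA10.

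SPG1, which encodes a mitochondrial protein, had ratios of 2.03, 2.06 and 1.94 in SMG 5 and 1.33, 1.43 and 1.57 in SMG 25. In Ctrl 5 they were 0.457, 0.683 and 0.267, and in Ctrl 25 0.183, 0.120 and 0.127. SPG1 is the only gene of the group whose control arrays also separated by time, with all of Ctrl 25 under all of Ctrl 5. Its log2 fold change in LSMMG was 3.02 at 5 generations and 2.53 at 25 (SE 0.47 for both).

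SPG5, whose protein associates with the proteasome in stationary phase, rose less, with ratios of 1.29, 1.42 and 1.34 in SMG 5 and 1.28, 1.42 and 1.12 in SMG 25 beside 0.763, 0.891 and 0.357 in Ctrl 5 and 0.474, 0.510 and 0.376 in Ctrl 25. The LSMMG and control arrays still did not overlap, and the log2 fold changes were 1.35 and 1.26 (SE 0.26). SPG3, of no known molecular role, had a small difference. Its ratios ran from 1.01 to 1.21 in SMG 5, from 1.001 to 1.05 in SMG 25 and from 0.589 to 1.05 in Ctrl, so that 1 control array lay within the LSMMG range, and the log2 fold changes were 0.46 and 0.34 (SE 0.15).

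SIP18 and GRE1 encode related hydrophilins, and SIP18 is needed for full survival of drying. SIP18 had ratios of 2.16, 2.30 and 2.40 in SMG 5 and 1.65, 1.88 and 1.46 in SMG 25. Its Ctrl 5 ratios were 0.494, 0.552 and 0.105, and its Ctrl 25 ratios 0.122, 0.153 and 0.0889. Every LSMMG array was above every control array, with log2 fold changes of 3.59 and 3.12 (SE 0.54). GRE1 was different. Its ratios were 2.04, 2.02 and 1.89 in SMG 5 and 0.930, 1.07 and 0.889 in SMG 25. In Ctrl 5 they were 1.47, 1.37 and 0.0962, and in Ctrl 25 0.158, 0.14 and 0.0978. All SMG 25 arrays thus lay below 2 of the control arrays and above the other 4. The log2 fold change of GRE1 was 2.86 at 5 generations and 1.81 at 25, each with an SE of 0.86.

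SNZ1 encodes the synthase of pyridoxal phosphate, the active form of vitamin B6, and SNO1 the glutaminase that feeds it ammonia. The genes lie side by side on chromosome XIII and are read away from each other, yet their ratios differed. SNO1 read 1.22, 1.05 and 1.29 in SMG 5 and 1.79, 1.66 and 1.83 in SMG 25, against 0.878, 0.951 and 0.216 in Ctrl 5 and 0.262, 0.379 and 0.349 in Ctrl 25. Its groups did not overlap, and its log2 fold changes were 1.46 and 2.03 (SE 0.42). SNZ1 read 0.979, 0.851 and 0.922 in SMG 5, which lay inside the range of the control arrays, 0.776 to 1.16. In SMG 25 it read 1.27, 1.53 and 2.16, above all of them. Its log2 fold changes were -0.03 and 0.78 (SE 0.17), so that the glutaminase gene was higher at both times and the synthase gene at the later time alone.

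**Figure D2:**
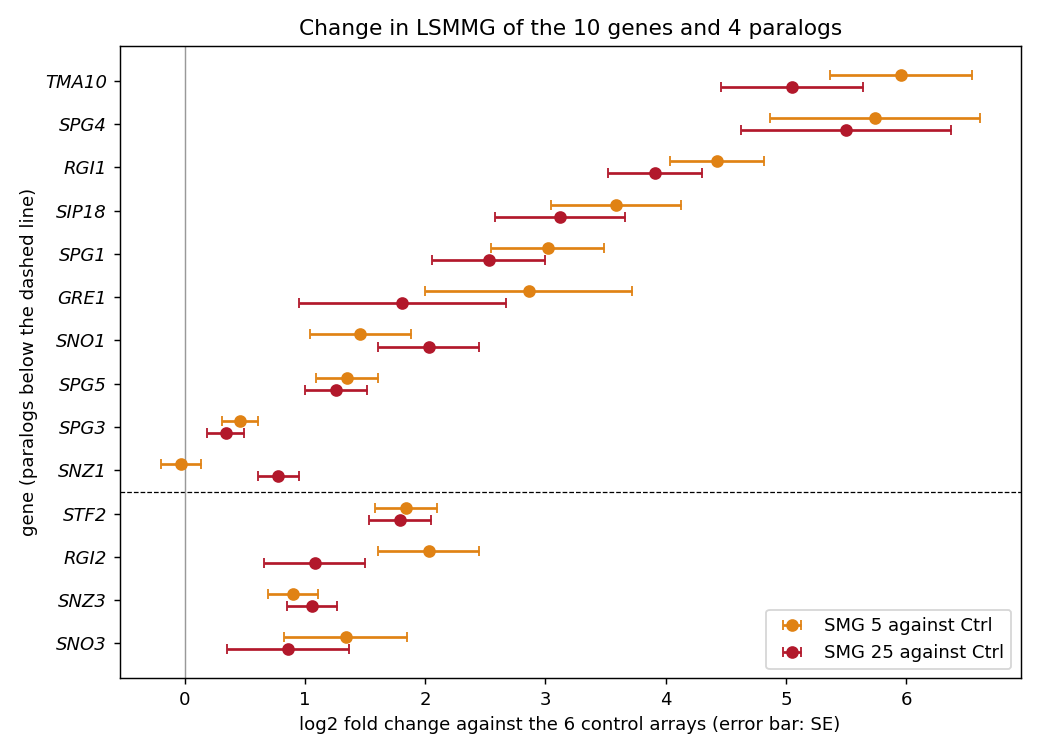
Log2 fold change against the 6 control arrays at 5 and 25 generations for the 10 genes, in order of their value at 5 generations, and below the dashed line for 4 paralogs (points are limma estimates, bars 1 SE). TMA10, SPG4 and RGI1 lie between 3.91 and 5.96, and SNZ1 at 5 generations, at -0.03, is the one value of the 10 genes below 0.

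Of the 10 genes, 9 were past an adjusted p of 0.05 (limma, Benjamini-Hochberg) as higher at 5 generations and 8 at 25, where 22.5% and 21.7% of all tested probe sets and 34.2% and 33% of the 5498 named ones were. SNZ1 was the exception at 5 generations, and SPG3 and GRE1 at 25. For 8 genes at each time every LSMMG array was above every control array, compared with 30.6% and 30.5% of named probe sets. Since the genes were chosen for these rises, nothing is read from the counts. The median log2 fold change of the 10 was 2.94 at 5 generations and 2.28 at 25, where the median named probe set was at 0.13 and 0.15 and the median of all tested at -0.00 and -0.01. Both comparisons use the same control arrays.

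Replicates 1 and 2 of Ctrl 5 moved with these rises. For SPG1, SPG4, SPG5, SNO1, SIP18, GRE1, TMA10 and RGI1 both arrays lay above all 4 other control arrays. For how many of all probe sets this holds was not counted. Set on the log2 distance from those 4 control arrays to SMG 5, both arrays stood at 0.253 and 0.313 of the way for RGI1, at 0.286 and 0.376 for TMA10, at 0.488 and 0.525 for SIP18 and at 0.893 and 0.868 for GRE1, replicate 1 first. They were thus closer to the other controls for RGI1 and TMA10. For GRE1, SNO1 (0.786 and 0.843) and SPG5 (0.507 and 0.641) they were closer to SMG 5. For SIP18, SPG1 (0.407 and 0.568) and SPG4 (0.513 and 0.428) they lay on either side of the middle. Over the 749 named probe sets at least 2-fold higher in SMG 5 at an adjusted p under 0.05 (limma), the median positions were 0.458 and 0.513. The shift of these arrays is thus not limited to the 10 genes. That set was chosen against a Ctrl mean that includes both arrays, so the medians describe the set alone. Why these arrays differ was not tested. Without both arrays, 9 genes were past the threshold as higher at 5 generations and 9 at 25, where 45% and 45.2% of named probe sets were, and the log2 fold change of GRE1 at 25 was 3.0. Again nothing is read from these counts.

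On the log2 scale 9 of the 10 genes varied more over the 6 control arrays than over the 6 LSMMG arrays, as did 73.0% of tested probe sets. The SD of SPG4 was 1.87 in controls, the arrays at 0.01 included, and 0.14 in LSMMG, and that of GRE1 was 1.86 and 0.58. In SNZ1, the one gene that went the other way, the SD was 0.24 in controls and 0.51 in LSMMG.

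Whether the genes kept their level from 5 to 25 generations in LSMMG was asked next. TMA10, RGI1, SPG1, SPG4, SIP18 and GRE1 were lower on every SMG 25 array than on any SMG 5 array, and SNZ1 and SNO1 were higher, while SPG3 and SPG5 overlapped. Separation downward was found for 25.3% of named probe sets and upward for 24.2%. In the fit over all 12 arrays, whose spread includes that of the controls, 0 of the 10 genes passed (limma, Benjamini-Hochberg), beside 2.69% of named probe sets. Only 1 gene had an unadjusted p under 0.05, a level at which the share of all probe sets was not taken. That gene was SNZ1, whose log2 ratio differed by 0.82 (SE 0.20, adjusted p = 0.065).

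Since the spread was so unequal, the LSMMG arrays were also fitted alone, a choice made after the data were seen. In that fit 6 genes fell and 2 rose, beside 9.68% of named probe sets that fell and 10.8% that rose. GRE1 fell most, by 1.04 on the log2 scale (SE 0.09, adjusted p = 0.0027), or 2.06-fold. TMA10 fell by 0.91 (SE 0.09, adjusted p = 0.0043), RGI1 by 0.52 (SE 0.08, adjusted p = 0.011) and SPG1 by 0.48 (SE 0.08, adjusted p = 0.013). The smallest falls were those of SIP18, by 0.47 (adjusted p = 0.028), and SPG4, by 0.24 (adjusted p = 0.048).

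The vitamin B6 pair moved the other way. SNO1 rose by 0.57 (SE 0.09, adjusted p = 0.012) and SNZ1 by 0.82 (SE 0.18, adjusted p = 0.028), that is 1.49-fold and 1.76-fold. The differences of SPG3 (-0.12, 95% interval -0.31 to 0.07) and SPG5 (-0.09, -0.32 to 0.14) did not pass. The fall of TMA10 stands beside a log2 difference of 5.96 from Ctrl at 5 generations and that of GRE1 beside one of 2.86. SNZ1 had no such difference to start from.

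**Figure D3:**
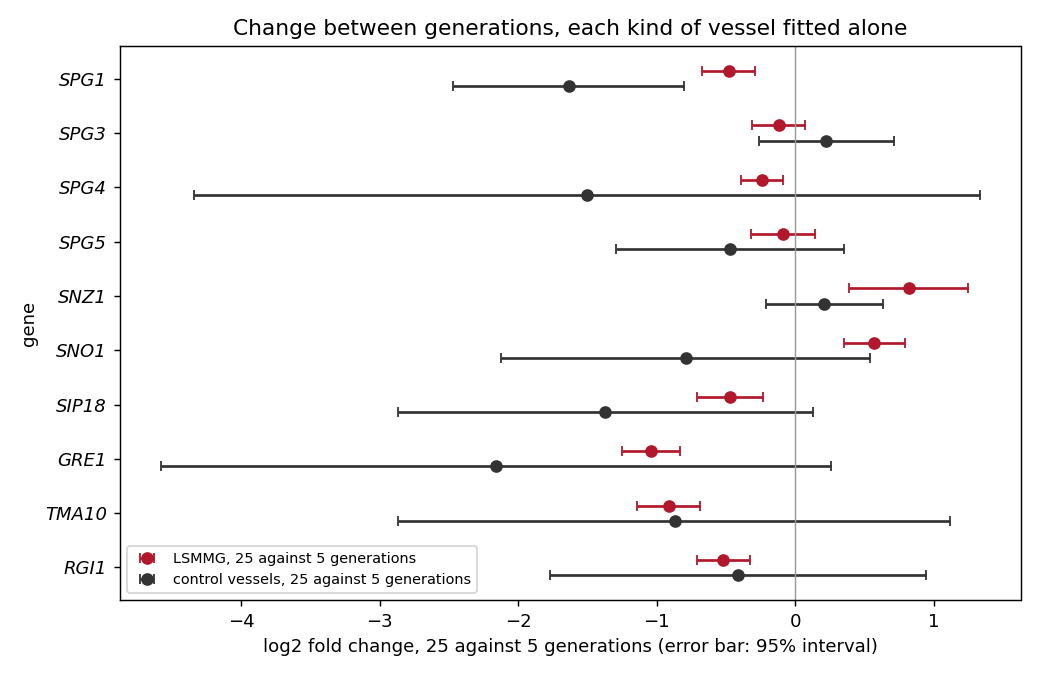
Log2 fold change of each gene at 25 against 5 generations in LSMMG and in control vessels, each from a limma fit of the 6 arrays of that kind of vessel alone (points are estimates, bars unadjusted 95% intervals). The LSMMG intervals lie below 0 for 6 genes and above 0 for SNZ1 and SNO1, and the control intervals are wider for 9 of the 10 genes (all but SNZ1) and cross 0 for all but SPG1.

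In the control vessels 8 of the 10 genes had lower means at 25 than at 5 generations and 2, SPG3 and SNZ1, higher ones, with a median log2 difference of -0.83 (all named probe sets, -0.10). None passed: 0 of 10 by limma after adjustment, beside 0.2% of named probe sets. At an unadjusted p under 0.05 there were 3, and the share of all probe sets at that level was not taken. In this fit over all 12 arrays, whose spread includes that of LSMMG, SPG1 came closest, at -1.63 (SE 0.27, adjusted p = 0.053). GRE1 was at -2.16 (SE 0.79, adjusted p = 0.14) and SIP18 at -1.37 (SE 0.49, adjusted p = 0.13). With the 6 control arrays fitted alone by limma, SPG1 had an SE of 0.35 and an adjusted p of 0.35, and 0 of the 10 genes passed. SPG1 was the 1 gene whose control times did not overlap, and 15.8% of named probe sets were separate in that direction. The differences turn on single arrays of Ctrl 5. Without replicates 1 and 2, when 1 array is left there, 8 of the 10 differences changed sign (all but those of SPG1 and SPG3), that of SIP18 to 0.17, that of GRE1 to 0.43 and that of TMA10 to 1.21. Without replicate 3, which lay below the other Ctrl 5 arrays for 9 of the genes (all but SNZ1), 8 passed as lower. SIP18 was then at -2.14, GRE1 at -3.45 and TMA10 at -1.92. The share of all probe sets was not taken for the 9 or the 8, so nothing is read from these counts.

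Whether the response to LSMMG itself changed between the times was tested as an interaction, the difference at 25 generations less that at 5, each against controls of the same time. None of the 10 genes passed (0 by limma after adjustment), where 0.255% of named probe sets did. At an unadjusted p under 0.05 there were 3, and the share of all probe sets at that level was not taken. The 3 were SPG1 (1.15, SE 0.39, adjusted p = 0.22), SNZ1 (0.61, SE 0.27, adjusted p = 0.33) and SNO1 (1.36, SE 0.62, adjusted p = 0.33), all in the direction of a larger difference at the later time. Without replicate 3 of Ctrl 5, 8 of the genes passed, all in that direction. The share of all probe sets passing in that fit was not taken, so nothing is read from the count. Without replicates 1 and 2 of Ctrl 5, when 1 array is left there, TMA10 (-2.13) and RGI1 (-1.54) lay in the opposite direction. The direction thus turns with the arrays left out. Against controls of the same time 7 of the genes were past the threshold as higher at 5 generations and 9 at 25, beside 26.4% and 39.9% of named probe sets, a count that the choice of the genes fixes in part. SNO1 and GRE1 were past it against all 6 control arrays at 5 generations but not against the 3 of that time.

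Most of the genes followed one another, with SNZ1 and SPG3 as exceptions. Over the 12 arrays the 28 pairs among the 8 genes other than SNZ1 and SPG3 had Pearson correlations of log2 ratios from 0.832 to 0.996. The points share the split between LSMMG and control arrays, for which the genes were chosen, and the same hybridizations. Within the 6 control arrays those pairs ran from 0.645 to 0.988. Within the 6 LSMMG arrays, where the split is by time, they ran from -0.996 to 0.983, and the 21 of them without SNO1 from 0.239 to 0.983. The 9 pairs of SPG3 ran from 0.0772 to 0.797 over all arrays, from -0.471 to 0.545 in controls and from -0.674 to 0.688 in LSMMG.

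SNZ1 stood apart in both kinds of vessel. Its 9 correlations lay between -0.792 and -0.471 in the controls. In LSMMG 8 of them were negative, down to -0.955, and the one with SNO1 was 0.876. SNO1 therefore went with the genes other than SNZ1 over the control arrays and with SNZ1 over the LSMMG arrays. Among the controls, replicates 1 and 2 of Ctrl 5 had the highest SNO1 ratios (0.878 and 0.951). Their SNZ1 ratios (0.838 and 0.776) were among its lowest.

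**Figure D4:**
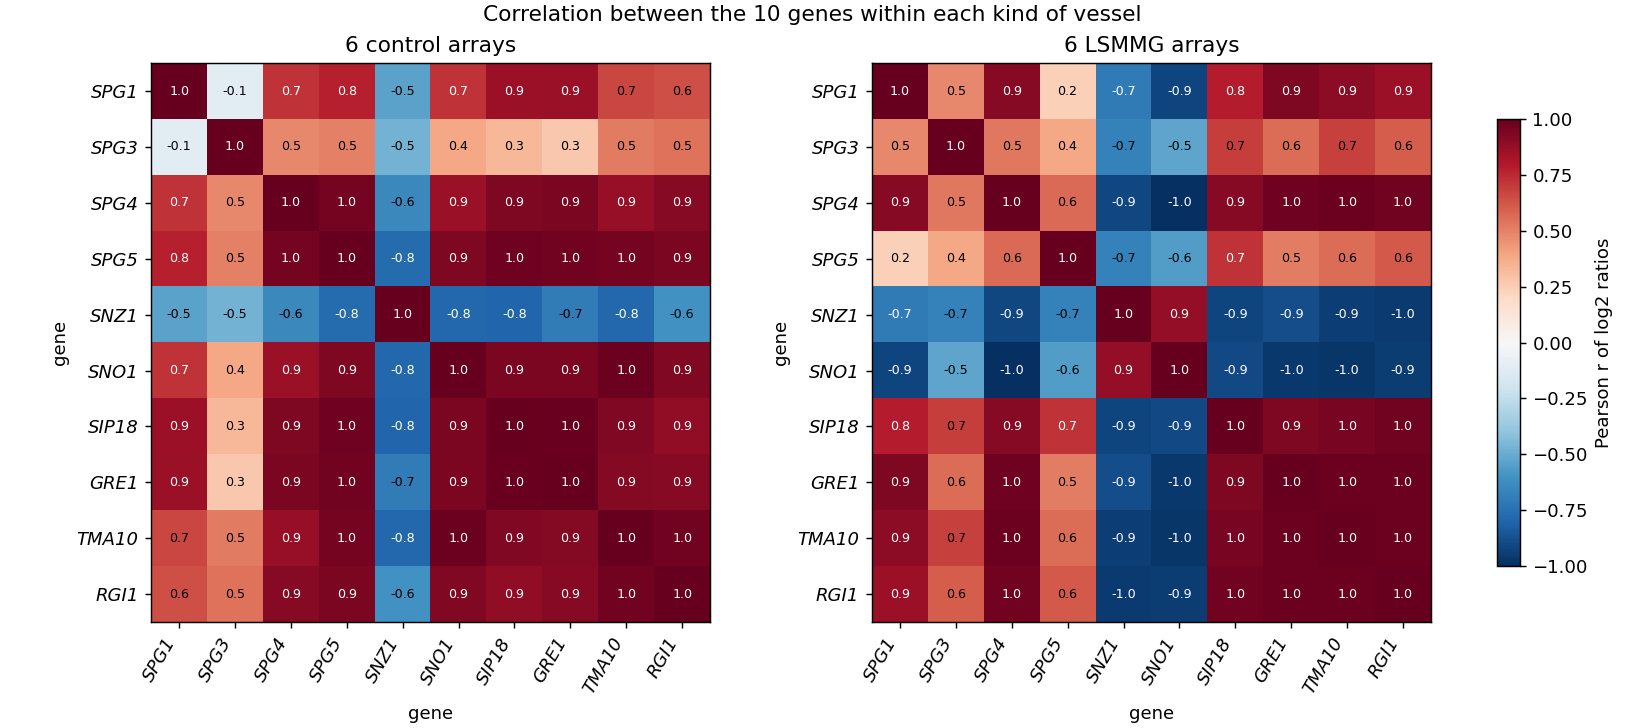
Pearson correlation of log2 ratios between the 10 genes over the 6 control arrays (left) and the 6 LSMMG arrays (right), printed in each square to 1 decimal. SNZ1 is negative with all others among controls, and SNZ1 and SNO1 form a pair against the rest in LSMMG.

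The named genes outside the 10 that were most like each member over the 12 arrays were found by the same correlation. Members were left out as matches, and RGI1 and TMA10 correlated at 0.996 with each other. TMA10 was closest to VPS21, a GTPase of endosomal traffic (r = 0.998), and SIP18 to YEL073C (r = 0.998) and PKP1, a kinase of pyruvate dehydrogenase (r = 0.997). SPG4 was closest to PIC2, a mitochondrial carrier of phosphate and copper (0.996), RGI1 to FUN19 (0.995), SPG5 to STF1, an inhibitor of the mitochondrial ATPase (0.994), and GRE1 to FMP16 (0.992). SPG1 was closest to the splicing factor gene CLF1 (0.988) and SNO1 to CTO1 (0.987). The best matches of SPG3 and SNZ1 were weaker, 0.96 with the ubiquitin gene UBI4 and 0.936 with AIM9. All these values share the same 12 arrays and the split between LSMMG and controls.

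In the RefSeq annotation of the S288C assembly all 10 genes are shorter than the median protein-coding gene, with a median length of 435 bases (240 for SIP18 to 1122 for SPG5) beside 1203. SNZ1, SNO1, SPG4, SIP18 and SPG5, 5 of the 10, lie on chromosome XIII, which holds 7.84% of the 6021 protein-coding genes, and of these SNZ1 and SNO1 alone are neighbours.

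The genes next to the members on either side numbered 18, of which 17 were measured. As higher, 10 passed at 5 generations and 6 at 25 (58.8% and 35.3%), beside 34.2% and 33% of named probe sets. As lower, 1 and 2 passed, beside 26.8% and 25.4% of named probe sets. The medians were 0.47 and 0.26, and those of all named probe sets 0.13 and 0.15. PAI3, an inhibitor of a vacuolar protease whose gene is read away from SIP18, rose by log2 2.14 at 5 generations and 1.82 at 25 (SE 0.54 for both, adjusted p = 0.0073 and 0.018). YGR237C beside SPG1 rose by 1.57 and 1.95. ILV2, an enzyme of branched-chain amino acid synthesis that lies next to SPG4, fell by 1.33 and 1.26 on the log2 scale, although SPG4 had one of the largest rises on the array. The neighbours of TMA10 differed too. YLR326W rose by 0.47 at 5 generations and was at -0.03 at 25, and NMA1, an enzyme of NAD synthesis, was at -0.46 and fell by 0.59 at 25.

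Of the other neighbours, MIC26, LPP1, PSP1, MTG1, FMP40, YMR175W-A and RRT13 rose at 5 generations, with log2 fold changes from 0.41 for YMR175W-A to 0.99 for RRT13. SGS1, GYL1, CTF13, MMT2 and MOT2 did not pass at either time. The calls of PAI3, FMP40 and NMA1 at 25 generations were lost without 1 or another of the SMG 25 arrays.

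The paralogs of the members were measured for 4 of the 6 listed. STF2, the paralog of TMA10 and a hydrophilin that also binds the mitochondrial ATPase, rose by log2 1.84 at 5 generations and 1.79 at 25 (SE 0.26 for both, adjusted p = 1.8e-04 and 2.3e-04). RGI2, the paralog of RGI1, at 5 generations rose by 2.03 (SE 0.42, adjusted p = 0.0022), and was at 1.08 (adjusted p = 0.061) at 25. Both rose less than the members they pair with. SNZ3 and SNO3 differ little in sequence from other copies of the family, so that their probe sets may read more than 1 gene. SNZ3 rose at both times, by 0.90 and 1.06 (SE 0.21), also at 5 generations where SNZ1 was at -0.03, and SNO3 was at 1.34 and 0.86 (SE 0.51) without passing.

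Lists of related genes are set beside the 10. They were chosen with earlier results of these data known, so nothing is read from their counts as a test. Of all named probe sets, 34.2% passed as higher at 5 generations and 33% at 25, and 26.8% and 25.4% as lower. The genes named below are those of each list that differed most between the groups. Other desiccation genes rose in 8 of 9 cases at 5 generations and 6 of 9 at 25, none fell, and the medians were 0.91 and 0.79. RTC3, another hydrophilin, rose most (3.11 and 2.88, SE 0.24). The trehalose synthase gene TPS1 rose by 0.91 and 0.83 and its partner TSL1 by 1.18 and 1.11. The values of RTC3 lie below those of SIP18 (3.59 and 3.12) and above those of GRE1 (2.86 and 1.81).

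Genes known to be expressed in stationary phase rose in 12 of 12 cases at 5 generations and 9 of 12 at 25, with medians of 1.62 and 1.55. SPS100, a wall protein of spores and resting cells, rose by 3.22 and 3.98 (SE 0.60), and FMP45, a membrane protein needed in stationary phase, by 2.39 and 2.11 (SE 0.35). The superoxide dismutase genes SOD1 (0.48 and 0.32) and SOD2 (1.12 and 1.12) rose less. Genes repressed by glucose rose in 14 of 18 cases at 5 generations and 10 of 18 at 25, with medians of 1.35 and 1.02. Among them were ADH2, which oxidizes ethanol (2.45 and 2.26, SE 0.36), the glyoxylate cycle gene ICL1 (1.85 and 1.70), the acetyl-CoA synthetase gene ACS1 (1.48 and 0.89) and HXK1, a hexokinase gene (1.46 and 1.16). No gene of either list passed as lower against all controls. Against controls of the same time, stationary-phase genes passed as higher in 6 of 12 cases at 5 generations and 10 of 12 at 25. Glucose-repressed genes did in 12 and 16 of 18, with 1 lower at 25. The other desiccation genes did in 6 and 4 of 9. Of named probe sets 26.4% and 39.9% passed as higher in those comparisons.

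The regulators were mixed. Of 18 measured, 10 passed as higher and 2 as lower at 5 generations, and 7 and 3 at 25, with medians of 0.69 and 0.38. The shares passing as higher were 55.6% and 38.9%, beside 34.2% and 33% of named probe sets. IGO2, which protects messages on entry to quiescence, rose by 1.65 and 1.24 (SE 0.13), and the kinase genes YAK1 (1.74 and 1.56) and HOG1 (0.80 and 0.90) also rose. MSN4 rose by 1.28 (SE 0.16, adjusted p = 6.7e-05) at 5 generations, was at 0.31 (adjusted p = 0.14) at 25, and fell between the times by 0.97 (SE 0.18, adjusted p = 0.033). It was the 1 gene of this list to change between the times in the fit of all arrays. Some regulators that differed less between the groups went the other way. The ratios of MSN2 ran from 0.806 to 0.998 in LSMMG and from 1.01 to 1.27 in Ctrl. Those of WHI2 ran from 0.681 to 0.989 and from 1.0 to 1.17. RPH1 was at 0.12 at 5 generations and -0.31 at 25.

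Vitamin B6 and thiamine genes, some of which share regulation with copies of the SNZ and SNO family, moved both ways. Of 19 measured of 24, 8 rose and 2 fell at each time, with medians of 0.51 and 0.43. The 42.1% that rose at each time stand beside 34.2% and 33% of named probe sets. THI4, a thiamine synthesis gene, rose by 2.68 and 2.56 (SE 0.27), and THI13, one of a set of near-identical genes that a probe set may not tell apart, by 1.89 and 2.18. PDX3, the oxidase that completes vitamin B6 synthesis by salvage, rose by 0.60 and 0.78 (SE 0.10). PHO3, the thiamine-repressed phosphatase gene, fell by 2.67 and 1.77 on the log2 scale (SE 0.12) and rose between the times in LSMMG by 0.90 (SE 0.14, adjusted p = 0.015).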

How the data were processed

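RNA of the 12 samples was hybridized to Affymetrix yeast arrays. The authors deposited ratios, made from arrays that they had normalized by RMA and taken into GeneSpring. The ratios show a division by each array's median and by a level of each probe set, of which the settings are not given in the sources used here. Of 10928 probe sets, 8968 were tested, after leaving out 1746 of S. pombe, 166 array controls, 47 reporters and 1 with several genes. Of these, 5498 are named and 3470 are not. Names come from the platform annotation, and chromosomes and lengths from RefSeq.

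Log2 ratios with no added constant were fitted with limma 3.58.1 in R 4.3.3 (lmFit and eBayes) in the groups Ctrl, SMG 5 and SMG 25, with Ctrl divided by generation for the control comparison and the interaction. P-values were adjusted by Benjamini-Hochberg over all tested probe sets, with a threshold of 0.05. The steps were tested on simulated data. Plots were made in Python 3.11.15 with matplotlib 3.10.9.

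The members and lists were chosen with earlier results of these data known. Named were all members, paralogs and adjacent genes, and the 4 genes of each other list with the largest F statistic over the groups. MSN2, WHI2 and RPH1 were named besides, as regulators with lower values in LSMMG at 25 generations. For likeness the best 2 matches of each member were taken among named genes that are not members. For genes with several probe sets the plainest suffix was taken. The replicate numbers were checked for pairing: of 18 same-numbered pairs, 5 correlated above 0.1 after removing group means, and 4 of 12 arrays were closest to their own number. The 3 pairs of Ctrl 5 with Ctrl 25 were all above 0.1, and those of no other 2 groups were. Replicate 1 of Ctrl 5 was closer to replicate 2 of Ctrl 25 (r = 0.4) than to replicate 1 (r = 0.103). Whether the control arrays are paired by number is therefore not settled. Alternatives were the methods' t-test, other centring, quantile normalization, a trended and robust prior, array weights, an added 0.1, a floor of 0.05, named probe sets only, same-generation controls, a replicate block and leaving out arrays. Fits of each kind of vessel alone, of the control arrays with the replicate block and a fit with the reporters kept were chosen after the data were seen. Sequences were not used here.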

Additional observations from a re-analysis of the deposited data

How the results depend on the processing

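In LSMMG against Ctrl, 6 to 9 of the 10 genes passed at 5 generations and 8 to 9 at 25 when 1 array was left out. Against controls of the same generation 7 and 9 passed, with array weights 9 and 10, and by the methods' t-test 9 and 7. Under each other setting run with all arrays 9 and 8 passed. Of all 8968 tested probe sets, 2018 and 1943 passed as higher in the main fit, 2718 and 2667 with array weights and 1918 and 1884 by the t-test. With 1 array left out these ran from 1556 to 2368 at 5 generations and from 1549 to 2338 at 25. Against same-generation controls 26.4% and 39.9% of named probe sets passed as higher. The call ended for SNO1 and GRE1 at 5 generations with same-generation controls, for SPG3, SNO1 and GRE1 there without 1 or another SMG 5 array, and for SNZ1 at 25 by the t-test. The interaction has no value by the t-test, and 1 fit of array weights stopped before its tolerance was reached. Of 93 genes on the other lists, 67 passed at 5 generations and 53 at 25, and with array weights 81 and 75.

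The same-numbered control arrays of the 2 times all correlated above 0.1 (r = 0.103, 0.312 and 0.49), unlike those of any other 2 groups. Replicate 1 of Ctrl 5 was closer to replicate 2 of Ctrl 25 (r = 0.4), so a pairing by number is not settled. In the control arrays alone with the replicate block, a fit chosen after the data were seen, 0 of the 10 genes passed, with adjusted p from 0.21 to 0.64. With the replicate block over all arrays 9 and 8 of the 10 genes passed in LSMMG against Ctrl and 0 in each of the other comparisons, and of the other list genes 65 and 55.

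Between the times in LSMMG, where 0 genes passed, 1 did after quantile normalization, 2 with array weights, 2 without replicates 1 and 2 of Ctrl 5, 8 in the LSMMG arrays alone, and 0 to 1 with 1 array left out. Between the control times 8 passed with array weights, 1 with named probe sets only, 1 (RGI1, higher) without those 2 arrays, and 0 to 8 with 1 array left out. In the interaction 6 passed with array weights, all above 0, 2 without those 2 arrays, both below 0 (TMA10 -2.13 and RGI1 -1.54), and 0 to 8 with 1 left out. Both values of 8 with 1 array left out are those without replicate 3 of Ctrl 5, lower between the control times and above 0 in the interaction, and the cause was not tested. Apart from the LSMMG arrays alone, the share of all probe sets passing was not taken for these alternatives. Nothing is therefore read from their counts.

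Of the genes' single values, 1100 kept direction and side of the threshold, 52 came to pass, 10 no longer passed and 28 changed sign. For the other named genes these numbers are 1852, 42, 15 and 11. Without replicates 1 and 2 of Ctrl 5, the control difference changed sign for SPG4 (1.27), SPG5 (0.33), SNZ1 (-0.01), SNO1 (0.59), SIP18 (0.17), GRE1 (0.43), TMA10 (1.21) and RGI1 (1.02), and the interaction for SPG4 (-1.51), SPG5 (-0.42), SNO1 (-0.02), SIP18 (-0.64) and GRE1 (-1.47). At 25 generations against Ctrl, GYL1 (-0.06), YLR326W (0.01) and MOT2 (0.14) did too. Same-generation controls turned SNZ1 at 5 generations (0.07) and GYL1 (-0.06) and MOT2 (0.21) at 25. Array weights turned the interaction of TMA10 (0.80) and RGI1 (0.44) and MOT2 at 25 (0.12), and a floor of 0.05 turned the interaction of TMA10 (0.18). Quantile normalization turned SPG4 between the times in LSMMG (0.01) and RGI1 between the control times (0.13). With 1 array left out, SNZ1 at 5 generations ran from -0.09 to 0.03, the interaction of TMA10 from -0.71 to 1.0 and of RGI1 from -0.54 to 0.61, the control difference of RGI1 from -1.13 to 0.02, and at 25 generations SGS1 from -0.13 to 0.01, YLR326W from -0.06 to 0.02 and MOT2 from -0.09 to 0.04. Signal over background was not used here.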
